A study of Sus scrofa with 5 samples.

Results

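Nuclei of peptidergic sensory neurons in which the irritant channel TRPA1 was detected were set against nuclei of the same kind in which it was not. The nuclei came from thoracic and lumbar dorsal root ganglia of 5 male Landrace pigs, 80 mg of tissue per sample, a single untreated group whose age the labels do not give. Neuronal nuclei were isolated with more than one detergent and enriched in more than one way, and nothing in the table tied a nucleus to a pig or to a protocol. The table was therefore 1 pooled sample, no test was possible, and the 95% intervals below hold counting error alone and say nothing of differences between pigs. Of 2189 nuclei, 1258 held 3000 to 20000 unique molecular identifiers (UMIs, each 1 captured transcript). Of these, 271 were taken as peptidergic, selected on their counts of 8 genes: ADCYAP1, GAL, FRK, RGS8, NPNT and BDKRB2 summed to at least 3 UMIs, with IL31RA under 3 and TRPM8 under 2 UMIs. TRPA1 gave at least 1 UMI in 120 of them (TRPA1-positive) and none in 151 (TRPA1-negative). The 120 held 1009300 UMIs in all and the 151 held 934677. These 6 genes, IL31RA, TRPM8 and TRPA1 chose or split the nuclei, so their own values are given as description.

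TRPA1 is a cation channel opened by electrophilic irritants such as mustard oil and by products of oxidative stress. It is known from small sensory neurons, many of which also carry the heat and capsaicin channel TRPV1 and release neuropeptides. Calcium entering through it depolarises the ending and releases substance P and calcitonin gene-related peptide, and kinases and lipases downstream of inflammatory receptors change its gating. The pig gene lies on chromosome 4 (63493374 to 63558486, RefSeq annotation of Sscrofa11.1).

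TRPA1 counts were low in most nuclei and high in a few. Among the 120 TRPA1-positive nuclei 72 had 1 UMI, 21 had 2, 2 had 3 and 25 had at least 4, with a highest count of 16. The 25 nuclei with at least 4 UMIs held 56.0% of the 273 TRPA1 UMIs. They came from each of the 4 larger libraries, 6 from library 1, 5 from library 3, 9 from library 5 and 5 from library 6. Of all 271 nuclei, 44.3% were TRPA1-positive (exact binomial interval 38.3 to 50.4%). Within libraries the share was 39.7% of 63 nuclei in library 1, 39.8% of 113 in library 3, 48.9% of 47 in library 5 and 54.3% of 46 in library 6. Library 4 gave 2 nuclei, both TRPA1-positive, and library 2 gave none.

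A count of 0 did not show that a nucleus lacked the transcript. TRPA1-positive nuclei were deeper, with a median of 7860 UMIs against 5434. In a TRPA1-negative nucleus a count of 0 allowed a level of up to 171.5 to 992 counts per 1000000 UMIs (CPM), with a median limit of 552 CPM. The level over the 120 TRPA1-positive nuclei was 270 CPM, and the limit was above that in 142 of the 151 TRPA1-negative nuclei. With every nucleus thinned at random to 3000 UMIs, 24.0% of the 271 kept a TRPA1 UMI (19.0 to 29.5%). The TRPA1-negative side can therefore hold neurons that express the channel.

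**Figure D1:**
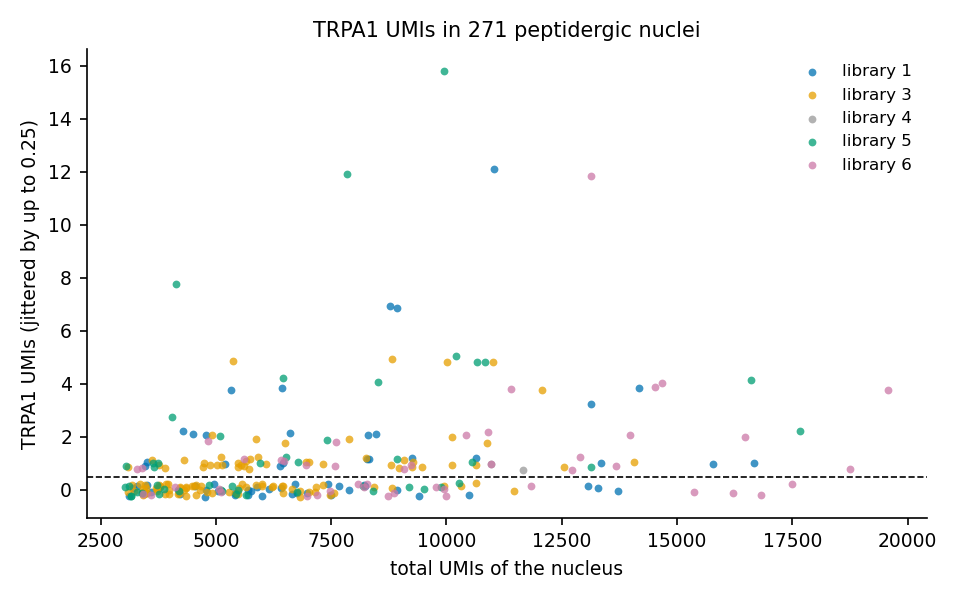
TRPA1 UMIs (vertical axis, jittered) against total UMIs (horizontal axis) for each of the 271 peptidergic nuclei, coloured by library, with the dashed line between the TRPA1-negative and TRPA1-positive side. Most points lie at 0 or 1 UMI at every depth, and the 25 nuclei with at least 4 UMIs come from libraries 1, 3, 5 and 6.

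Other neurons of the same table also gave TRPA1 UMIs. At 3000 to 20000 UMIs, 42.8% of 208 nuclei with at least 3 IL31RA UMIs had one (median depth 9332 UMIs), as did 36.5% of 137 nuclei with at least 2 TRPM8 UMIs (7271 UMIs). Large-fibre nuclei, with at least 3 UMIs summed over NTRK3, NTRK2, PVALB and SLC17A7 and none of the selection genes, represent touch and muscle afferents, which are not known for TRPA1, and gave 17.7% of 192 (12.6 to 23.9%, median 6765 UMIs against 6392 in peptidergic nuclei). Thinned to 3000 UMIs the shares were 18.3%, 20.4% and 7.29% in that order. The summed level was 140 CPM in peptidergic nuclei (124 to 158), 97.7 CPM in IL31RA nuclei, 68.3 CPM in TRPM8 nuclei and 30.2 CPM in large-fibre nuclei (22.02 to 40.4). The peptidergic share lay above the large-fibre share at both depths, but large-fibre nuclei were required to hold none of the selection genes, which also removes nuclei carrying free RNA of peptidergic neurons. The part of free RNA in the single TRPA1 UMIs of the 72 nuclei was not tested. Only 1 large-fibre nucleus had at least 4 TRPA1 UMIs.

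Peptidergic markers that the selection had not used were present on both sides. TAC1, the substance P precursor, stood at 4173 CPM in TRPA1-positive and 2546 CPM in TRPA1-negative nuclei, against 645 CPM in TRPM8 and 270 CPM in large-fibre nuclei, although IL31RA nuclei had 3701 CPM. Its level differed between libraries, from 10468 and 5197 CPM on the 2 sides in library 1 to 488 and 462 CPM in library 6. In library 6 both sides lay below the pooled TRPM8 value. The comparison nuclei are not split by library here, so the part of the library mix was not tested. OPRK1, the kappa opioid receptor, stood at 39.6 and 32.1 CPM against 21.1 CPM in IL31RA nuclei and 1.34 CPM in large-fibre nuclei. Large-fibre markers were lower than in large-fibre nuclei but present. NTRK2 stood at 124 and 122 CPM against 664 CPM. NTRK3 stood at 25.8 and 36.4 CPM against 314 CPM and PVALB at 23.8 and 12.8 CPM against 225 CPM. NTRK2, NTRK3 and PVALB had helped to pick the large-fibre nuclei, so their higher level there was fixed by that choice. ESRRG and NEFH had not been used to pick them. ESRRG stood at 54.5 and 38.5 CPM against 153 CPM. NEFH, the heavy neurofilament of large neurons, stood at 484 and 435 CPM against 2863 CPM in large-fibre nuclei. CALCA, CALCB and GFRA3 had no row under those symbols and were not analysed here.

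The selection genes themselves were not evenly split. Their sum was alike, 1034 CPM on the TRPA1-positive and 1118 CPM on the TRPA1-negative side, and ADCYAP1, the peptide PACAP, stood at 378 and 347 CPM. The peptide galanin (GAL) stood at 201 against 323 CPM, the matrix protein NPNT at 89.2 against 154 CPM and the bradykinin receptor BDKRB2 at 38.6 against 61.0 CPM. RGS8, a regulator of G-protein signalling, stood at 169 against 105 CPM and the kinase FRK at 157.5 against 128 CPM. IL31RA, capped at 2 UMIs by the selection, stood at 83.2 against 52.4 CPM, and 50% of TRPA1-positive but 25.2% of TRPA1-negative nuclei carried a UMI of it. Just outside the selection, nuclei whose selection genes summed to 2 had 64.9 CPM of TRPA1 (72 nuclei), and just inside, those summing to 3 had 115 CPM (50 nuclei). At the lower depth limit, 10.5% of 19 nuclei with 2500 to under 3000 UMIs and 17.9% of 28 with 3000 to 3500 UMIs had a TRPA1 UMI, and at the upper limit both nuclei with 18000 to 20000 UMIs and 7 of 8 with 20000 to 25000 UMIs had one.

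Across all other genes the 2 sides were close. Of 3868 genes that reached 100 UMIs in the 271 nuclei, 146 were at least 1.5-fold higher on the TRPA1-positive side (3.77%) and 53 at least 1.5-fold lower (1.37%), and the median log2 ratio was 0.04. Only 22 genes were 2-fold higher and 2 were 2-fold lower. Among the 2-fold higher genes were NOS1, FGF14, FSTL4, KIRREL3, NTM, MYO1E, GRK3, ASIC2 and GRIA2, and the 2 lower ones were PDE10A and FSCN1. With log2 ratios centred on their median, 118 genes were higher and 72 lower. A further condition asked that a gene be 1.5-fold apart also after stratification by library, and keep its direction in each library that gave a value, which 73 higher and 31 lower genes with a symbol met. CDH4, a cadherin with the next ratio after NOS1 (81 against 20 UMIs), did not keep its direction and was singled out here after its values were seen.

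**Figure D2:**
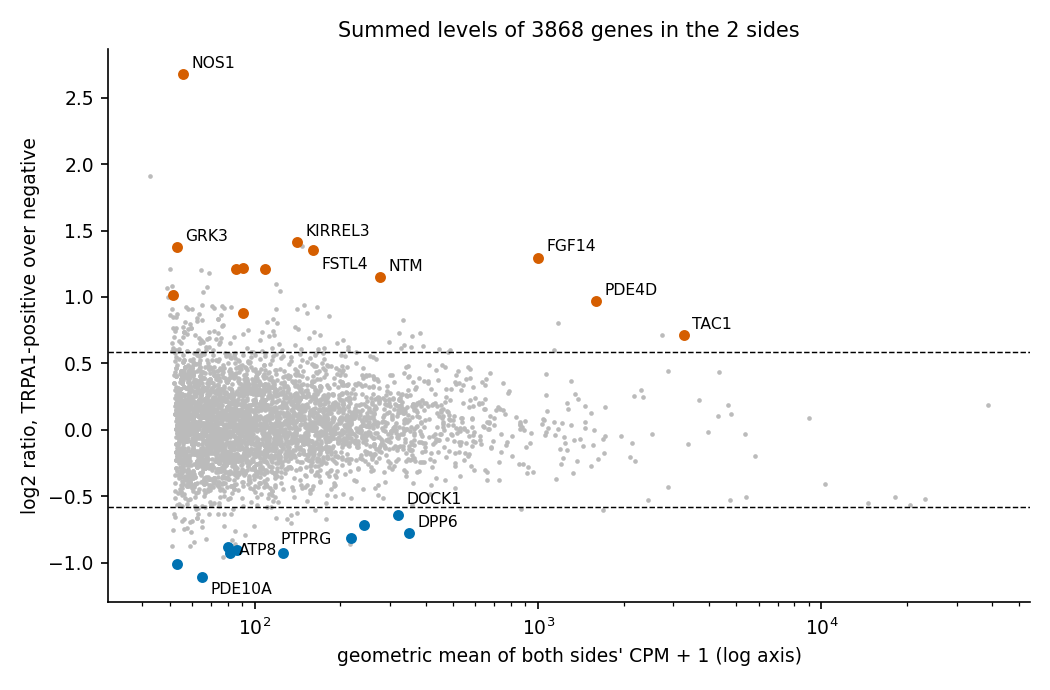
Log2 ratio of summed CPM, TRPA1-positive over TRPA1-negative nuclei (vertical axis), against the mean level (horizontal log axis) for the 3868 genes with at least 100 UMIs. Dashed lines mark 1.5-fold, orange and blue points the genes named by rule, and NOS1 lies above all others at a log2 ratio of 2.68.

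NOS1, the neuronal nitric oxide synthase, showed the largest ratio of the 3868 genes. Its level on the TRPA1-positive and TRPA1-negative side was 146 and 32.3 CPM in library 1, 52.4 and 8.33 CPM in library 3, 302 and 37.4 CPM in library 5, and 128.5 and 20.8 CPM in library 6. The positive side was higher in each of these 4 libraries. Over all libraries NOS1 stood at 137 CPM (138 UMIs) against 21.4 CPM (20 UMIs), 6.39-fold higher (3.98 to 10.8). Stratified by library and depth the log2 ratio was 2.57, against 2.68 pooled. It was 2.12 without nuclei with an IL31RA UMI, and 1.92 after thinning. IL31RA nuclei had 114 CPM of NOS1, TRPM8 nuclei 20.3 CPM and large-fibre nuclei 7.38 CPM.

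NOS1 levels differed with the number of TRPA1 UMIs in the nucleus. Its level was 21.4 CPM in nuclei with 0 TRPA1 UMIs (interval 13.1 to 33.0), 43.3 CPM with 1 UMI (27.7 to 64.4), 103 CPM with 2 or 3 (62.8 to 159) and 361 CPM with at least 4 (292 to 442). Among the 25 nuclei of the last group 17 had a NOS1 UMI, and 13 had at least 2 (4 of 6 in library 1, 2 of 5 in library 3, 6 of 9 in library 5 and 1 of 5 in library 6). The intervals at 0 and 1 TRPA1 UMI overlapped, and that of nuclei with at least 4 lay above all others. The nuclei with at least 4 TRPA1 UMIs were also the deepest, with a median of 10196 UMIs, and a single nucleus held 26 of the 94 NOS1 UMIs. A limit of 3 NOS1 UMIs, chosen after its values were seen, was reached by 21 of 120 TRPA1-positive nuclei (17.5%, 11.2 to 25.5%). It was reached by 0 of 151 TRPA1-negative nuclei, which allows a share of up to 1.99% (3 counts of 151, with an exact binomial upper limit of 2.41%). The highest NOS1 count of a TRPA1-negative nucleus was 2, so that 0 followed from the choice of limit. The intervals do not allow for that choice. TRPA1-negative nuclei were also shallower, with a median of 5434 against 7860 UMIs. Thinned to 3000 UMIs, 18.3% of TRPA1-positive and 7.28% of TRPA1-negative nuclei kept a NOS1 UMI.

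**Figure D3:**
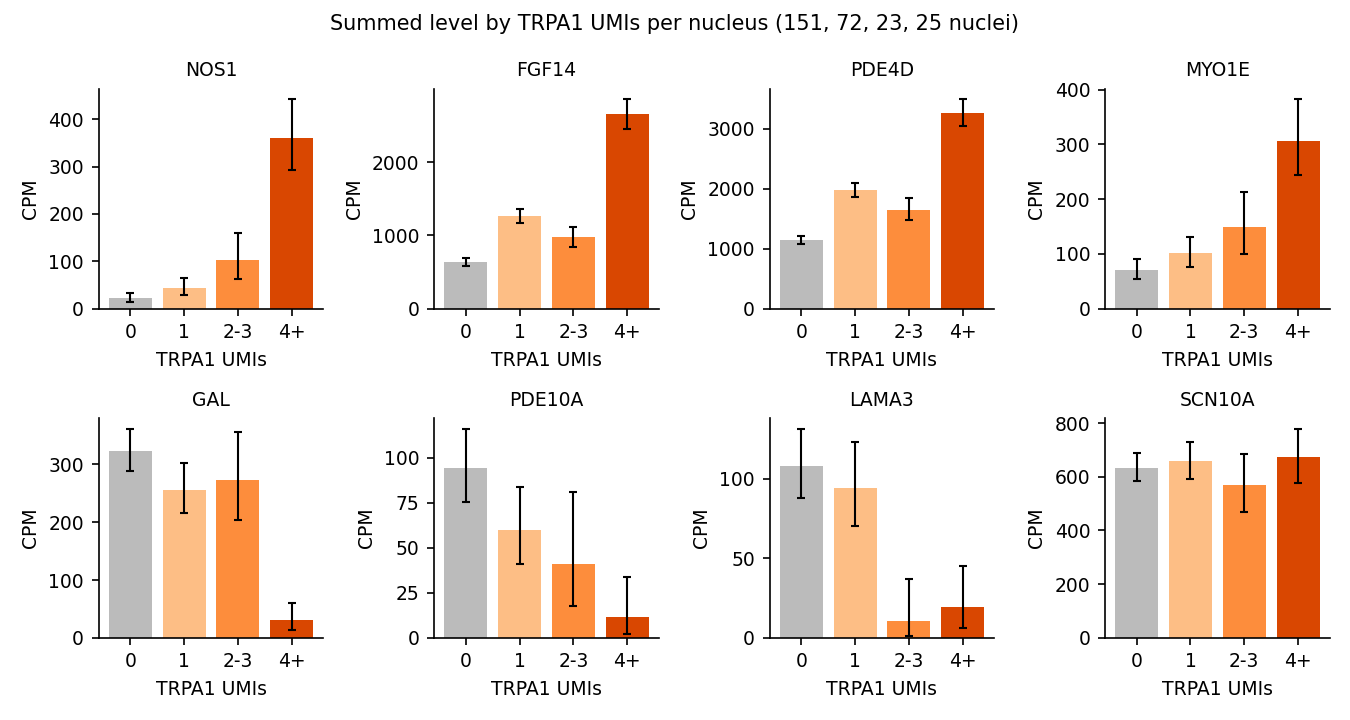
Summed CPM (bars, axes from 0) of 8 genes in nuclei with 0, 1, 2 to 3 and at least 4 TRPA1 UMIs, with 95% Poisson intervals of the counts. NOS1 reaches 361 CPM and GAL drops to 30.7 CPM in the 25 nuclei with the most TRPA1, while SCN10A stays between 570 and 672 CPM.

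Galanin was low in the same nuclei. GAL, a selection gene given as description, stood at 323 CPM with 0 TRPA1 UMIs (288 to 362), 256 CPM with 1 UMI, 272 CPM with 2 or 3 and 30.7 CPM with at least 4 (13.3 to 60.5). In the last group 7 of 25 nuclei had a GAL UMI and none had more than 2, against 110 of 151 TRPA1-negative nuclei with one. Of these 25 nuclei 14 came from libraries 5 and 6, where GAL was also low on the TRPA1-negative side (119.5 and 125 CPM, against 585 CPM in library 1 and 325 CPM in library 3).

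FGF14, an intracellular factor that binds sodium channels, was the most abundant gene to differ over 2-fold. It stood at 868 and 319 CPM in library 1, 1943 and 913 CPM in library 3, 1872 and 814 CPM in library 5 and 1534.5 and 400 CPM in library 6, positive side first. The positive side was higher in each of the 4, and the pooled levels were 1561 against 635.5 CPM, 2.46-fold higher (2.23 to 2.70). Its level was 2649 CPM in nuclei with at least 4 TRPA1 UMIs, each of which carried FGF14. It did not rise steadily with TRPA1, at 1258 CPM with 1 UMI (1166 to 1355) and 971 CPM with 2 or 3 (837 to 1120). Without nuclei with an IL31RA UMI the log2 ratio was 1.01, against 1.30. TRPM8 nuclei had 2414 CPM of FGF14, above both sides, IL31RA nuclei 1087 CPM and large-fibre nuclei 749 CPM. The sodium channel genes fixed by role differed less. SCN9A (Nav1.7) stood at 729 against 578 CPM, 1.26-fold higher (1.13 to 1.41), SCN10A (Nav1.8) at 645 against 634 CPM and SCN11A (Nav1.9) at 202 against 214 CPM. Of 11 members of the sodium channel list with at least 100 UMIs, FGF14 alone was 1.5-fold higher and none was 1.5-fold lower. The shares over all genes were 3.77% and 1.37%, and the median log2 ratio of the list was 0.30.

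PDE4D, a phosphodiesterase that degrades cyclic AMP, was 1.96-fold higher (1.82 to 2.11). Its level was 1325 against 891 CPM in library 1, 2593 against 1160 CPM in library 3, 2574 against 1322 CPM in library 5 and 2491 against 1319 CPM in library 6. IL31RA nuclei had 3931 CPM, above both sides, and without nuclei with an IL31RA UMI the log2 ratio went from 0.97 to 0.82. PDE4D was 1 of 17 members with at least 100 UMIs of a list of known or proposed partners and regulators of TRPA1 and TRPV1. Of these, 2 were 1.5-fold higher, PDE4D and the adenylyl cyclase ADCY5, and none 1.5-fold lower, against 3.77% and 1.37% of all genes. The median log2 ratio of the list was 0.07. ADCY5 stood at 153 against 101 CPM, with a log2 ratio of 0.38 after stratification by library, against 0.60. PIRT, a membrane protein that regulates TRP channels, stood at 200.1 against 152 CPM (1.32-fold, 1.06 to 1.64). TMEM100, which is described as tuning the contact of TRPA1 with TRPV1, was rare at 15.9 and 17.1 CPM.

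TRPV1 did not separate the sides. It gave 33 UMIs on the TRPA1-positive and 24 on the TRPA1-negative side, 32.7 against 25.7 CPM, a ratio of 1.27 whose interval of 0.73 to 2.25 leaves room for a difference either way. Within libraries its log2 ratio was 0.68 in library 3, 1.00 in library 5 and -0.69 in library 6, and it was -0.04 after stratification by library and depth and -0.54 after thinning. TRPM3, a heat-responsive channel, stood at 1652 and 1737.5 CPM and TRPC4 at 71.3 and 84.5 CPM. The touch channel PIEZO2 stood at 162.5 and 175.5 CPM but was unsettled. It had 491 against 329 CPM in library 5 and 121 against 358 CPM in library 6, and 1 nucleus held 48 of its 164 TRPA1-positive UMIs. Its log2 ratio of -0.11 became -0.60 after stratification by library and depth, -1.46 without nuclei holding markers of other classes and -1.67 at 5000 to 15000 UMIs.

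Of 11 transduction channel genes with at least 100 UMIs, 3 were 1.5-fold higher and none 1.5-fold lower (3.77% and 1.37% of all genes), with a median log2 ratio of 0.37, or 0.19 after stratification by library and depth. ASIC2, an acid-sensing channel subunit, stood at 137 against 58.8 CPM, 2.32-fold higher (1.69 to 3.24), but its log2 ratio went from 1.22 to 0.43 without nuclei with an IL31RA UMI, and IL31RA nuclei had 165 CPM. TRPM2, a channel gated by ADP-ribose and oxidants, stood at 174 against 84.5 CPM (2.06-fold), with a log2 ratio of -0.16 in library 1. ANO3, a TMEM16 family member, stood at 94.1 against 56.7 CPM. Among rarer channels TRPC5, a cold-related channel of the TRPC group, was lower at 16.8 against 42.8 CPM (17 and 40 UMIs). Library 1 held 19 of those 40, and without it the log2 ratio of TRPC5 went from -1.35 to -0.70.

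**Figure D4:**
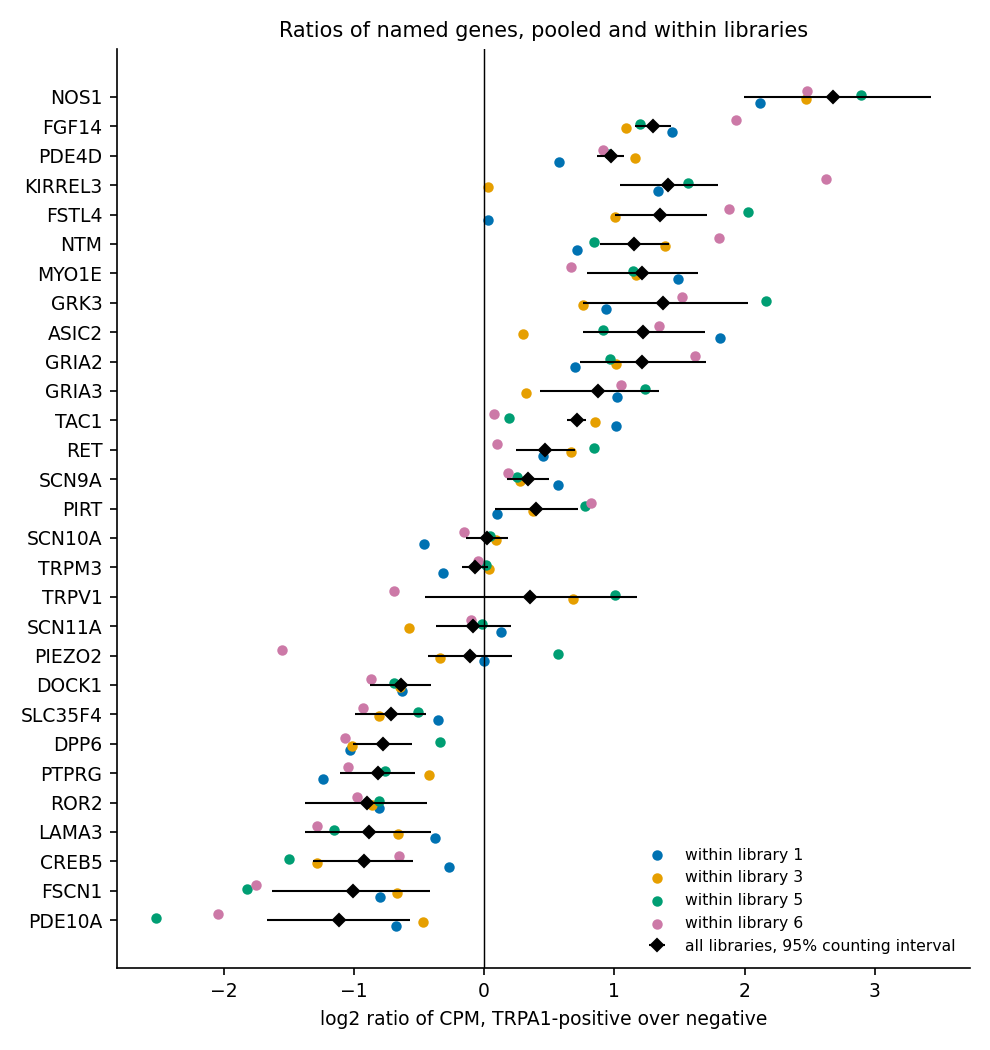
Log2 ratios of CPM for 29 named genes, pooled (black, with 95% counting interval) and within libraries 1, 3, 5 and 6 (coloured). NOS1, FGF14, PDE4D, MYO1E, GRK3 and GRIA2 lie to the right of 0 in each library, whereas the points of TRPV1 and PIEZO2 fall on both sides.

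In all, 3 AMPA-type glutamate receptor subunits were higher on the TRPA1-positive side. GRIA2, the subunit that limits calcium entry, stood at 129 against 55.6 CPM, 2.32-fold higher (1.67 to 3.26), with log2 ratios of 0.70 to 1.62 within libraries. GRIA3 stood at 122 against 66.3 CPM (1.84-fold) and GRIA4 at 68.4 against 36.4 CPM (1.88-fold). GRIA2 was higher in the other classes than on both sides, at 235 CPM in IL31RA, 276 CPM in TRPM8 and 214 CPM in large-fibre nuclei. GRIA3 stood at 237 CPM in TRPM8, 121 CPM in large-fibre and 92.3 CPM in IL31RA nuclei. Without nuclei with an IL31RA UMI, GRIA2 kept a log2 ratio of 1.16 and GRIA3 went from 0.88 to 0.29, and to 0.37 after thinning. These were the 3 of 8 ligand-gated channel genes with at least 100 UMIs that were 1.5-fold higher, and none was lower (median log2 ratio 0.42). Over all genes 3.77% were 1.5-fold higher and 1.37% lower. Among rarer members the kainate subunit GRIK3 (30.7 against 64.2 CPM) and the NMDA subunit GRIN2B (12 against 25 UMIs) went the other way, GRIN2B with 13 of its 25 UMIs in library 1 and a log2 ratio of -0.48 without that library, against -1.17. The GABA-A receptor subunit GABRA2 stood at 56.5 against 20.3 CPM. Its level in large-fibre nuclei was 301 CPM, and its log2 ratio went from 1.47 to 0.44 without nuclei holding markers of other classes.

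Potassium channel genes split both ways. Of 22 with at least 100 UMIs, 4 were 1.5-fold higher (KCNH7, KCNH8, KCNG2 and DPP10) and 1 was 1.5-fold lower (DPP6), against 3.77% and 1.37% of all genes. Their median log2 ratio was 0.17. DPP6 and DPP10, both auxiliary subunits of A-type Kv4 channels, moved apart: DPP6 stood at 266 against 456 CPM, 1.72-fold lower (1.47 to 2.01), and DPP10 at 443 against 250 CPM, with a log2 ratio of -0.21 in library 6 and 143 of its 447 TRPA1-positive UMIs in 1 nucleus. A single TRPA1-negative nucleus held 117 of the 426 DPP6 UMIs, and without the highest nucleus of each side the log2 ratio of DPP6 was -0.61, against -0.78, and it was -0.54 with selection genes summing to at least 4. The log2 ratio of KCNH8, 1.01 over all nuclei, was 0.48 after thinning, 0.49 at 5000 to 15000 UMIs and 0.43 without nuclei holding markers of other classes, and 1 nucleus held 16 of its 72 TRPA1-positive UMIs. KCNH8 stood at 71.3 and 35.3 CPM, below its 286 CPM in IL31RA, 224 CPM in TRPM8 and 188 CPM in large-fibre nuclei. Of the 237 KCNH7 UMIs on the TRPA1-positive side 80 came from 1 nucleus. KCNC4, a fast Kv3 channel counted among the genes with at least 30 but under 100 UMIs, stood at 54.5 against 17.1 CPM, 3.18-fold higher (1.80 to 5.95). At that lower minimum of 30 UMIs, 8.28% of 8094 genes were 1.5-fold higher and 4.6% 1.5-fold lower.

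Of 14 calcium channel genes with at least 100 UMIs, 4 were 1.5-fold higher and none lower, against 3.77% and 1.37% of all genes, with a median log2 ratio of 0.38 (0.42 after stratification by library and depth). CACNA1A, the P/Q-type pore, stood at 136 against 81.3 CPM (1.67-fold, 1.25 to 2.24) and CACNA1C, an L-type pore, at 441 against 287 CPM (1.54-fold, 1.32 to 1.80), whose log2 ratio was 0.43 after stratification by library, against 0.62. The auxiliary subunits CACNA2D3 (245 against 135 CPM) and CACNA2D2 (207 against 124 CPM) were higher over all libraries but had log2 ratios of -0.13 and -0.37 in library 1.

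TAC1 differed in 2 libraries and hardly in the others. It stood at 10468 against 5197 CPM in library 1 and 4577 against 2534.5 CPM in library 3, but at 761 against 665 CPM in library 5 and 488 against 462 CPM in library 6. Pooled, it was 1.64-fold higher (1.56 to 1.72), and its log2 ratio went from 0.71 to 0.50 without nuclei holding markers of other classes. The 5 highest nuclei held 1235 of the 4212 TRPA1-positive and 544 of the 2380 TRPA1-negative TAC1 UMIs. The median nucleus stood at 1815 against 1494 CPM, and at 1090 CPM with at least 4 TRPA1 UMIs. TAC1 was detected in 94.2% against 96.0% of nuclei. The secretory granule protein SCG2 also differed mainly in libraries 1 and 3, and stood at 243 against 154 CPM pooled. Its log2 ratios were 1.10 and 0.89 in libraries 1 and 3 but 0.04 and -0.14 in libraries 5 and 6. TAC1 and SCG2 were the 2 of 9 neuropeptide and granule genes with at least 100 UMIs that were 1.5-fold higher, and none was 1.5-fold lower. The shares over all genes were 3.77% and 1.37%, and the median log2 ratio of the list was 0.17. BDNF, a neurotrophin, gave 37 against 14 UMIs, 2.45-fold higher (1.29 to 4.90), and its log2 ratio went from 1.29 to 0.62 after thinning. SST gave 14 against 28 UMIs, of which library 1 held 24, and its ratio turned over without that library (log2 ratio 0.78).

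Of 17 growth factor and cytokine receptor genes none was 1.5-fold apart (median log2 ratio 0.01), which in a list of this size is near the share over all genes (3.77% higher and 1.37% lower), as it is for the smaller receptor lists that follow. RET, the GDNF family signalling receptor, came nearest among the genes fixed by role, at 400.3 against 289 CPM (1.39-fold, 1.18 to 1.62). None of 3 pronociceptive receptor genes with at least 100 UMIs was 1.5-fold apart (median 0.03), and the prostaglandin receptor PTGER4 stood at 56.5 and 66.3 CPM. None of 5 inhibitory receptor genes was 1.5-fold apart (median 0.27), with the mu opioid receptor OPRM1 at 352 against 291 CPM (1.21-fold, 1.03 to 1.42). Of 24 transcription factor genes 3 were 1.5-fold higher, ISL2 (69.4 against 38.5 CPM), ZNF521 (97.1 against 54.6 CPM) and LDB2 (414 against 249 CPM, with a log2 ratio of -0.10 in library 1), and none lower, with a median of 0.00. None of 5 injury and activity genes was 1.5-fold apart (median -0.05).

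**Figure D5:**
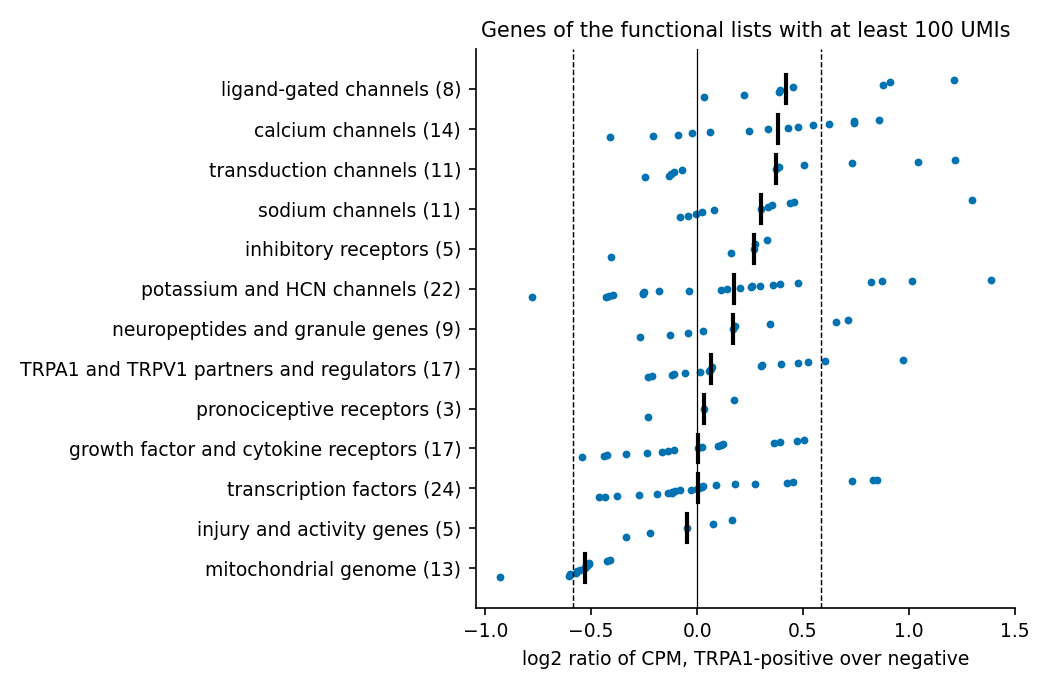
Log2 ratios of CPM (horizontal axis) for the genes of each functional list with at least 100 UMIs, 1 point per gene, with the number of genes in brackets, the list median as a black bar and dashed lines at 1.5-fold. Ligand-gated, calcium and transduction channels have the highest medians (0.42, 0.38 and 0.37) and the mitochondrial genome the lowest (-0.53).

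The remaining higher genes named from the whole table were in none of the functional lists. FSTL4, a secreted follistatin-like protein, stood at 254 against 99.5 CPM (2.55-fold, 2.00 to 3.27), but in library 1 at 94.3 against 92.7 CPM. NTM, a membrane-anchored adhesion protein of the neurotrimin group, stood at 411 against 185 CPM (2.22-fold, 1.86 to 2.67) and MYO1E, a membrane-linked myosin, at 163.5 against 70.6 CPM (2.32-fold, 1.73 to 3.13). MYO1E reached 307 CPM in nuclei with at least 4 TRPA1 UMIs. GRK3, a kinase that desensitises G-protein-coupled receptors, stood at 83.2 against 32.1 CPM (2.59-fold, 1.69 to 4.08). TRPM8 nuclei had 1238 CPM of NTM and 210 CPM of GRK3, and large-fibre nuclei 201 CPM of MYO1E, each above both sides. IL31RA nuclei had less of each than the TRPA1-positive side, NTM at 160 CPM, MYO1E at 108 CPM and GRK3 at 47.6 CPM. KIRREL3, a synaptic adhesion protein, was 2.66-fold higher (228 against 85.6 CPM) but detected in 31.7% and 29.1% of nuclei. Large-fibre nuclei had 1261 CPM of KIRREL3, and its log2 ratio went from 1.41 to 0.58 without nuclei holding markers of other classes. Without nuclei with an IL31RA UMI, the log2 ratios of FSTL4, MYO1E and GRK3 were 0.74, 0.76 and 0.74, against 1.35, 1.21 and 1.37.

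Fewer genes were lower on the TRPA1-positive side. PDE10A, a phosphodiesterase for both cyclic nucleotides, stood at 51.9 against 84.7 CPM in library 1, 67.8 against 94.4 CPM in library 3, 16.2 against 105 CPM in library 5 and 22.7 against 98.7 CPM in library 6. It was 2.16-fold lower over all libraries (1.49 to 3.18). Nuclei with at least 4 TRPA1 UMIs had 11.5 CPM (3 UMIs, 2.38 to 33.7 CPM), against 94.2 CPM in TRPA1-negative ones. FSCN1, which bundles actin, stood at 36.7 against 73.8 CPM and LAMA3, a laminin chain, at 58.5 against 108 CPM. Both were near the TRPA1-negative level with 1 TRPA1 UMI (54.1 and 93.8 CPM) and low with 2 or 3 (20.5 and 10.3 CPM) and with at least 4 (11.5 and 19.2 CPM). The low levels rest on few counts, 4 and 2 UMIs with 2 or 3 TRPA1 UMIs, and 3 and 5 UMIs with at least 4. With 2 or 3 TRPA1 UMIs the FSCN1 interval (5.60 to 52.6 CPM) overlapped that with 1 (36.5 to 77.3 CPM). The LAMA3 intervals did not overlap (1.24 to 37.1 and 70.1 to 123 CPM). PTPRG, a receptor tyrosine phosphatase, was 1.76-fold lower (1.44 to 2.15), and the Wnt receptor ROR2 1.87-fold lower (1.36 to 2.59) with log2 ratios of -0.98 to -0.81 within libraries. DOCK1, an activator of the small GTPase Rac, was 1.56-fold lower (1.32 to 1.83), and CREB5 and SLC35F4 were 1.90-fold and 1.64-fold lower. Without nuclei with an IL31RA UMI, the log2 ratios of PDE10A, LAMA3, FSCN1 and ROR2 were -0.51, -0.39, -0.48 and -0.48, against -1.11, -0.89, -1.01 and -0.90, whereas those of PTPRG and DOCK1 were -0.95 and -0.80, against -0.82 and -0.64. After thinning, PTPRG, DOCK1 and LAMA3 had log2 ratios of -0.51, -0.56 and -0.48.

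Mitochondrial RNA and depth moved with the split, and their part in the other differences was not tested beyond the stratified and thinned values given. The 13 genes of the mitochondrial genome were lower on the TRPA1-positive side, 3 of them 1.5-fold (ATP8, ND3 and ND5), against 1.37% of all genes. Their median log2 ratio was -0.53, which became -0.29 after stratification by library and -0.08 by library and depth. ATP8 turned to a log2 ratio of 0.13 without library 3. Mitochondrial UMIs made up 23.6% of the TRPA1-positive and 29.0% of the TRPA1-negative sum in library 3, but 3.91 and 4.00% in library 1 and at most 0.25% in libraries 5 and 6.

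Markers of other cells were summed for each side. The 9 markers of IL31RA and OSMR neurons stood at 497 against 423 CPM (1.18-fold, 1.03 to 1.35), the selection having capped IL31RA itself. They stood at 1400 against 980 CPM in library 1, 330 against 233 CPM in library 3 and 297 against 254 CPM in library 5. In library 6 the direction turned, at 125 against 177 CPM. The 8 measured markers of GFRA2 and LPAR3 neurons stood at 320.02 against 225 CPM (1.42-fold, 1.19 to 1.70). In the first list NTS was at 0 on the TRPA1-positive side, with 2 UMIs on the other, and no member of the second list was at 0. Large-fibre markers stood at 737 against 660 CPM, with RUNX3 and CALB1 at 0, and TRPM8 neuron markers at 211 against 189 CPM, with PENK at 0. TRPM8 neuron markers stood at 170 against 157 CPM in library 1, 145 against 236 CPM in library 3, 205 against 224 CPM in library 5 and 344 against 119 CPM in library 6. PENK was also at 0 in the TRPM8 nuclei, and CALB1 gave 1 UMI in large-fibre nuclei. Satellite glia markers stood at 734 against 918 CPM, Schwann cell markers at 911 against 1048 CPM, fibroblast markers at 163.5 against 225 CPM, vascular markers at 86.2 against 106 CPM and immune markers at 225 against 244 CPM. Stratified by library, the satellite glia ratio was 0.92, against 0.80 pooled, and the Schwann cell ratio 0.92, against 0.87. Schwann cell markers stood at 718 against 560 CPM in library 5 and were lower on the TRPA1-positive side in libraries 1, 3 and 6. Apart from the values without IL31RA-carrying nuclei and without nuclei holding other-class markers, the part of these cells in the differences was not tested.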

How the data were processed

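Single-nucleus RNA of pig dorsal root ganglia was measured with 10x 3′ chemistry, per the labels' protocols, and the authors deposited 1 table of raw UMI counts for 30477 rows and 2189 nuclei. The submitters' processing notes name Cell Ranger 6.0.1, Seurat and Sscrofa11.1 with no role. Filters on nuclei are not given in the sources used here. Of 14012 rows named by Ensembl identifier, 773 were given a symbol from RefSeq. Libraries were read from barcode endings, which the labels do not tie to pigs, and shared 0 barcodes. No doublet caller was run.

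Counts were summed per side, scaled to CPM and compared as ratios with exact conditional binomial 95% intervals, shares with Clopper-Pearson intervals (Python 3.11.15, scipy 1.17.1), and the ratio was tested on simulated data. All cover counting error only. Genes with at least 100 UMIs were called from 1.5-fold, and list genes were described from 30 UMIs. Stratified ratios are Mantel-Haenszel ratios over libraries, or over libraries and 3 depth ranges with borders at 5000 and 8000 UMIs. Within-library ratios needed 10 nuclei a side and 10 UMIs, with 0.5 added. Up to 10 genes a direction were named, from the lists and from all genes, whose interval excluded 1 and whose direction held in each library, ranked by the bound nearest 1. Another 14 were fixed by role, of which 1 is not reported here. Remaining list members were named after their values were seen. The members and lists were chosen with earlier results of these data known. Alternatives varied depth, scale, filter, selection and libraries.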

Additional observations from a re-analysis of the deposited data

Results flagged for a closer look

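TRPA1 was also present in nuclei that met the marker conditions but fell outside the depth limits and were used in no comparison. Among 46 nuclei under 3000 UMIs, 7 had a TRPA1 UMI, and the summed level was 76.6 CPM (33.1 to 151). Among 24 nuclei over 20000 UMIs, 21 had one, and the summed level was 92.5 CPM (73.0 to 116). Their summed TRPA1 counts, 8 and 77 UMIs, were above the 3 counts that a summed count of 0 would allow, which is what drew attention to them. Both levels were below the limits given above for single TRPA1-negative nuclei. The table holds no control group to set them against.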

How the results depend on the processing

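The number of genes called depended on the filter, the fold and the depth. Against 146 higher and 53 lower genes, 53 and 15 were called with every nucleus thinned to 3000 UMIs (1472 genes tested), 371 and 188 from 50 UMIs, 57 and 15 from 200 UMIs, 3873 and 4011 with no filter, and 22 and 2 at 2-fold. With TRPA1 at 2 or more UMIs against 0, 136 were lower and 219 higher. Leaving out each library in turn gave 105 to 155 higher and 40 to 76 lower. The share of TRPA1-positive nuclei, 44.3%, was 24.0% after thinning, 52.3% at 5000 to 15000 UMIs, 17.7% for at least 2 UMIs, and 42.2 to 47.5% without each library. Leaving mitochondrial genes out of the totals gave 113 higher and 72 lower genes. Alternatives added after seeing the data gave 116 and 72 (stratified by library and depth), 105 and 49 (without nuclei with an IL31RA UMI) and 126 and 54 (without the top nucleus of each side). Of the named genes, ATP8 turned to a log2 ratio of 0.13 without library 3 and SST to 0.78 without library 1 (ranges over left-out libraries -1.08 to 0.13 and -2.42 to 0.78). Apart from the smaller number of genes or nuclei under a stricter filter, the cause was not tested. No paired analysis was possible because the table holds 1 group and its columns carry no pig number. Low UMI counts limit the receptors most, and no value measures the spread between pigs.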
